A study of Mus musculus with 42 samples.

Results

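Bc1, Malat1, Neat1, Miat, Snhg11 and Snhg20 are 6 noncoding RNA genes of mouse brain, described here in 42 RNA-seq libraries. They were listed by symbol, and each symbol matched 1 Ensembl gene of the 54232 in the deposited count table. The genes were chosen from measured values of these brain libraries and with earlier results of the comparisons in view. Which values chose them is not given, and they are treated here as chosen for abundance. The levels below are therefore a description, and the tests are no independent evidence for these genes. The study fed mice a control diet (11% fat) or a western diet (42% fat) for 12 weeks and sequenced brain RNA, 20 libraries labelled cerebellum and 22 labelled hippocampus. NaKtide is a peptide derived from the Na,K-ATPase that inhibits the kinase Src, and transgenic mice expressed it when doxycycline (300 mg/kg) was in either diet. Per region label there are 4 groups: control diet, control diet with NaKtide, western diet, and western diet with NaKtide. Each holds 5 libraries, except 6 for hippocampus control and 6 for hippocampus western with NaKtide. The title of the series places the pathway under study in adipocytes. The promoter of the transgene, the strain, age and sex of the mice, and whether mice without NaKtide received doxycycline or carried the transgene are not given in the sources, so the effects of NaKtide and of doxycycline cannot be told apart. Nothing in the labels says that libraries of a group came from separate mice, and p-values then measure only the spread between these samples.

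Long noncoding RNAs act as RNA, and the 6 genes cover several of their known roles. Bc1 is a short RNA made by RNA polymerase III in neurons, carried into dendrites, where it represses translation. Malat1 resides in nuclear speckles, the stores of splicing factors, and Neat1 is the scaffold of paraspeckles, nuclear bodies built around it by proteins such as NONO and SFPQ. Miat, also called Gomafu, is a neuronal nuclear RNA that binds splicing factors, while Snhg11 and Snhg20 are small nucleolar RNA host genes, whose introns carry small RNAs that guide modification of other RNAs.

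The libraries held 4669374 to 9521002 counts. The granule cell marker Gabra6 stayed below 1 CPM (counts scaled to the library's total) in 14 of the 20 cerebellum libraries and reached 10 CPM in 3, so most libraries with that label lacked a defining marker of cerebellum. It also reached 10 CPM in 1 of the 22 hippocampus libraries. Groups are therefore called by their labels. The replicates nearest to each other were hippocampus control 5 and 6 (mean chi-square per gene 2.45, next pair 7.69), although their counts differed by more than sampling noise. Whether both came from the same mouse cannot be told from this. Xist exceeded 5 counts in 4 libraries (hippocampus control 5 and 6, hippocampus western NaKtide 6 and cerebellum western NaKtide 5). Bulk RNA cannot tell fewer cells of a type from less RNA per cell.

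In GENCODE M21 on GRCm38, Bc1 (ENSMUSG00000115783) lies at chr7:144914470-144914637 on the plus strand as 1 exon of 168 bases. Its sequence is shown because the promoter of the gene lies inside the RNA and because an internal run of 23 A (bases 77 to 99) can be caught by a kit that selects polyadenylated RNA. Capitals mark the letters of the A box (TNGCNNAGNGG, from base 14) and the B box (GGTTCGNNNC, from base 57), the internal elements of RNA polymerase III genes.

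Bc1: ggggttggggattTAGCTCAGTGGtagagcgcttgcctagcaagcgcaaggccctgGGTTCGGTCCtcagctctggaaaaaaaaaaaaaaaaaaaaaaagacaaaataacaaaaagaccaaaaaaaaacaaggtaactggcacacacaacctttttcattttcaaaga

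Both boxes stood in the first 168 bases of 8 of 49121 genes (0.0163%), searched on both strands, the A box alone in 2.41% and the B box alone in 0.820%. Of the 119 stretches of 50 bases in Bc1, 37 (31.1%) also occur in transcripts of 5 other genes. Reads from Bc1 and from those relatives may not be separable, so its counts are uncertain. Only annotated transcripts were searched, so any other copies in the genome are not included in that share. The counterpart shares were 1.2% for Malat1, 0.222% for Neat1 and 1.44% for Snhg11, while Miat and Snhg20 shared none.

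Malat1 (ENSMUSG00000092341, chr19:5795690-5802672, 6983 bases) and Neat1 (ENSMUSG00000092274, chr19:5824708-5845478, 20771 bases) are neighbours on the minus strand, 22035 bases apart. Malat1 and the long form of Neat1 are known to end in a triple helix in place of a poly(A) tail. In it, U-rich and A-rich runs pair near the 3′ end. Capitals mark the longest run of letters that the last 400 bases of both transcripts share and the longest shared run on its 3′ side (a shared run on its 5′ side stays in lower case), in bases 6600 to 6701 of Malat1-201 and 20673 to 20771 of Neat1-201.

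Malat1: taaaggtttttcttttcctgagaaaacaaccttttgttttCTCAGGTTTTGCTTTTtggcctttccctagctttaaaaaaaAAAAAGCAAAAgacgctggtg
Neat1: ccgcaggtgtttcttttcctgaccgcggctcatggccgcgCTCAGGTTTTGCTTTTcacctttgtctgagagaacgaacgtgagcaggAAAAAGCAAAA

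The U-rich run CTCAGGTTTTGCTTTT and the A-rich run AAAAAGCAAAA were taken from Malat1 (25 bases between the runs) and Neat1 (32 bases). Their presence in these 2 transcripts was thus fixed in advance. Of 55450 longest transcripts searched on their own strand, only these 2 held both runs within 100 bases, which is a description and no test of a shared element. In Neat1 the A-rich run closes the annotated transcript, and in Malat1 it stands 292 bases before the annotated end. The level of such transcripts in a poly(A)-selecting kit can depend on A-rich stretches inside them. The longest run of A was 12 bases in Malat1-201 and 7 bases in Neat1-201. GENCODE M21 lists 4 transcripts for each gene, and only the longest was examined. How far this shapes their counts here was not tested.

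Miat (ENSMUSG00000097767, chr5:112213228-112229395, minus strand, 9293 exonic bases) carries repeats of TACTAAC, the branch point sequence bound by the splicing factor SF1. The 200 bases of Miat-205 with the most repeats (bases 4873 to 5072) are shown with the repeats in capitals.

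Miat: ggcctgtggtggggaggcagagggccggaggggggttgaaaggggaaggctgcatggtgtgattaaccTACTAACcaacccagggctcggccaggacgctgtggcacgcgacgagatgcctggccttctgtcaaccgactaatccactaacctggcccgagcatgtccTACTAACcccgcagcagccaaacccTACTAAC

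The whole Miat-205 transcript of 9163 bases holds 6 of them on its own strand. As many or more were found in 2 of 4190 longest transcripts of at least 5000 bases (0.0477%). Snhg11 (ENSMUSG00000044349, chr2:158375638-158386145, plus strand, 8521 exonic bases) contains 2 annotated small nucleolar RNAs. GENCODE M21 types this gene protein coding, and RefSeq types it a long noncoding RNA. Snhg20 (ENSMUSG00000086859, chr11:117076008-117078955, plus strand, 2795 exonic bases) contains the small Cajal body RNA Gm26083 and the microRNA Mir6516. Malat1 and Miat each overlap 1 gene on the opposite strand (Gm37376 and Gm26953). Whether the authors' counting used strand is not given, so reads of such a pair may not be separable.

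Per length, only Bc1 ranked among the most abundant RNAs. Its deposited FPKM (fragments scaled to transcript length and depth) averaged 2363 over the 42 libraries, 18th of all genes, with no other long noncoding RNA above it. Snhg11 followed at 72.3 FPKM (1046th), then Malat1 at 21.3 (2993rd), Miat at 11.7 (4737th), Snhg20 at 8.74 (5684th) and Neat1 at 6.10 (7180th). By CPM, which takes no account of length, the order was Snhg11 (155th of the genes tested), Bc1 (299th), Malat1 (1291st), Neat1 (1568th), Miat (1844th) and Snhg20 (8155th). The name abundant fits Bc1 and Snhg11 best on either scale. Per length, 78 other genes that GENCODE types as long noncoding had a higher mean FPKM than Neat1 and 50 a higher one than Snhg20. The 6 genes together took 0.0719% to 0.284% of a library's counts, highest in hippocampus western NaKtide 4 and lowest in hippocampus western 1.

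All 6 varied widely between single libraries, in CPM scaled further by TMM factors (a normalization between libraries). Bc1 ranged from 134.6 CPM (cerebellum western 3) to 1204 CPM (cerebellum control 2), with raw counts of 769 to 6088. Miat spread the most, from 12.4 CPM (cerebellum western 3) to 390.2 CPM (hippocampus western NaKtide 5), a 31.4-fold range on 71 to 3190 counts. Cerebellum western 3, lowest for both Bc1 and Miat, also had the highest summed cerebellar granule and Purkinje cell markers. They summed to 5062 CPM there, against a median of 208.5 CPM over the libraries labelled cerebellum. Neat1 ran from 30.2 CPM (cerebellum control NaKtide 4) to 475.5 CPM (hippocampus western NaKtide 3), a 15.7-fold range. Snhg11 and Snhg20 both peaked in hippocampus western NaKtide 3, at 1716 and 42.8 CPM, and were lowest in hippocampus western 1 (225.7 CPM) and western 2 (7.47 CPM). Malat1 had its highest and its lowest library in the same group, hippocampus western with NaKtide (477.3 CPM in library 4 and 65.4 CPM in library 2). In the order of the 8 group means, neighbours differed by less than the larger of their SDs for each of the 6 genes.

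The order of group means was not the same for all genes. Bc1 was highest in cerebellum control (862.6 ± 269.6 CPM, SD, n = 5) and lowest in hippocampus western (173.8 ± 42.7, n = 5). Malat1, Neat1, Miat, Snhg11 and Snhg20 each had their highest mean in hippocampus western with NaKtide (n = 6), at 226.1 ± 148.3, 212.6 ± 150.6, 193.7 ± 144.1, 1077 ± 601.2 and 30.4 ± 12.5 CPM. Lowest means were in hippocampus western for Malat1 (104.9 ± 19.5), Neat1 (81.3 ± 26.3) and Snhg20 (10.4 ± 3.2), and in cerebellum western with NaKtide for Miat (54.0 ± 21.3) and Snhg11 (365.5 ± 87.8), each with n = 5. Neat1 in cerebellum control (185.4 ± 90.8) and Snhg20 there (27.0 ± 9.4) came second in their orders.

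**Figure D1:**
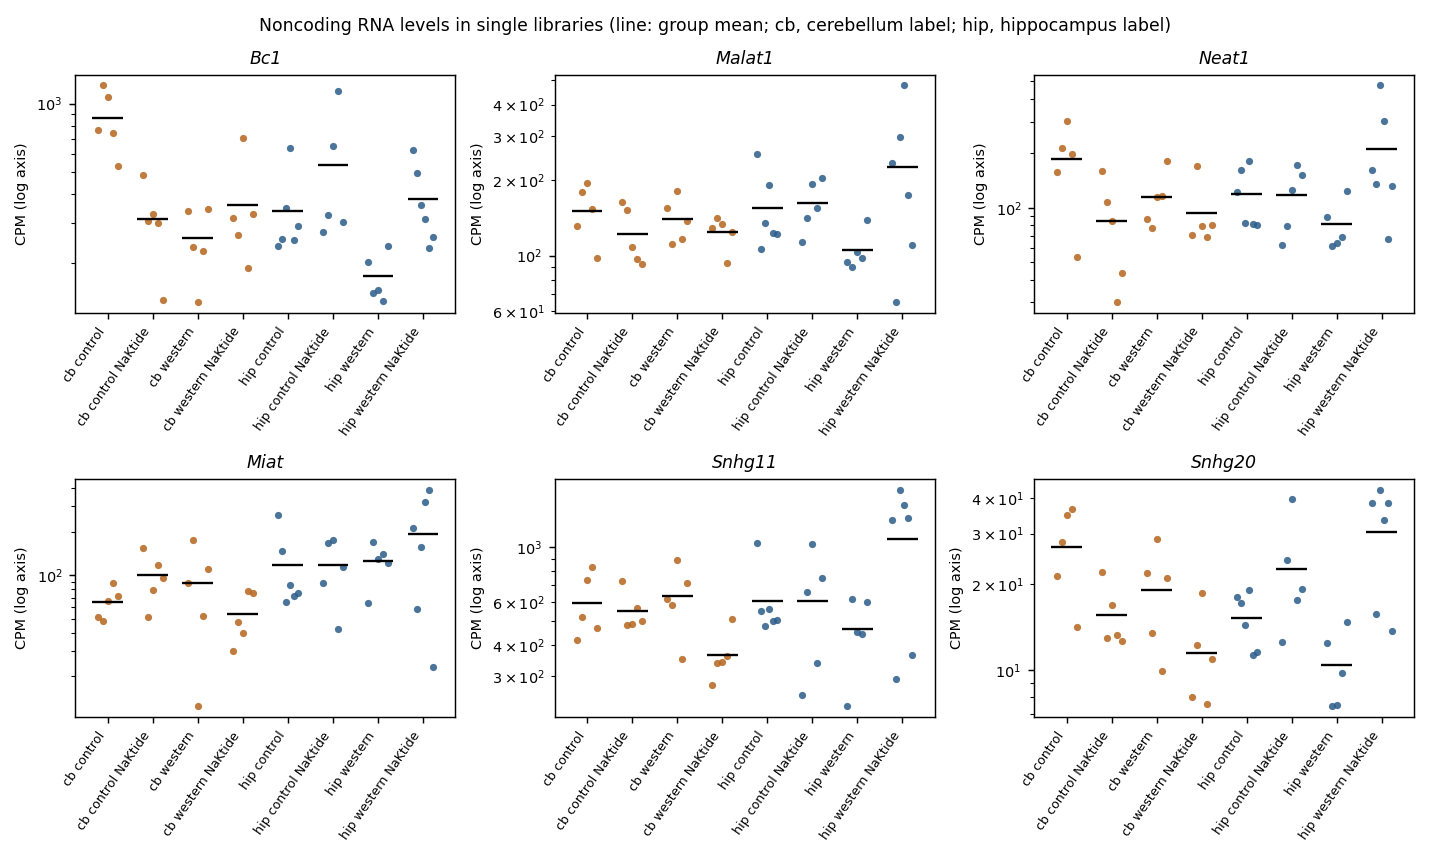
CPM (TMM factors, log axis) of the 6 noncoding RNAs in each of the 42 libraries, by group, with a line at the group mean; cb is the cerebellum label and hip the hippocampus label. The 5 cerebellum control libraries lie at 530.3 to 1204 CPM for Bc1, and the western NaKtide libraries of hippocampus spread from 289.8 to 1716 CPM for Snhg11.

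On the western diet and under the hippocampus label, 5 of the 6 RNAs were higher with NaKtide than without it. Bc1, Malat1, Neat1, Snhg11 and Snhg20 rose 2.19-fold, 2.12-fold, 2.59-fold, 2.26-fold and 2.90-fold, and Miat did not pass the test. In the same comparison 33.7% of the 16442 genes tested passed (17.4% with a rise and 16.3% with a fall), by edgeR's quasi-likelihood test with a Benjamini-Hochberg adjusted p under 0.05. The median log2 fold change was 1.15 over the 6 RNAs and 0.054 over all genes.

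Bc1, the dendritic translation repressor, was at 200.3, 146.5, 150.8, 135.5 and 235.9 CPM in the 5 western libraries, and at 233.0 to 626.2 CPM (median 335.0) in the 6 with NaKtide. All but 1 NaKtide library lay above every western library. The log2 fold change was 1.13 (SE 0.36, adjusted p = 0.0218, edgeR). The estimate was 0.40 (adjusted p = 0.241) once the trend of expression with exon length was removed in each library, an alternative added after seeing the data. That trend, in log2 per doubling of length, ran from 0.0581 to 0.278 in the western libraries and from -0.166 to 0.0573 in those with NaKtide, so short RNAs were relatively higher in the latter.

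Malat1 of nuclear speckles was at 94.0, 90.03, 103.6, 98.2 and 138.7 CPM in the western libraries. With NaKtide it ranged from 65.4 to 477.3 CPM (median 204.1), 4 libraries above and 1 below all western ones. Its log2 fold change was 1.08 (SE 0.35, adjusted p = 0.0207, edgeR). Neat1, the paraspeckle scaffold, was at 88.6, 61.3, 63.7, 68.7 and 124.2 CPM without NaKtide and at 67.2 to 475.5 CPM (median 148.8) with it. Of the NaKtide libraries 5 exceeded all western ones, and the log2 fold change was 1.37 (SE 0.40, adjusted p = 0.0128, edgeR). Libraries 3 (475.5 CPM) and 4 (302.9 CPM) stood highest.

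Miat, the splicing-factor-binding RNA, was at 64.4, 169.2, 129.0, 139.0 and 120.8 CPM in the western libraries. With NaKtide its 6 libraries went both ways, 3 above and 2 below all western libraries, from 23.3 to 390.2 CPM (median 184.3). The log2 fold change was 0.60 (SE 0.52, 95% interval -0.42 to 1.63, adjusted p = 0.383, edgeR).

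Of the small nucleolar RNA hosts, Snhg11 was at 225.7, 614.5, 452.3, 441.7 and 597.0 CPM without NaKtide. With NaKtide libraries 1, 3, 4 and 5 were at 1286, 1716, 1488 and 1316 CPM, above all western libraries, whereas libraries 2 and 6 were at 289.8 and 363.3 CPM, inside the western range. The log2 fold change was 1.18 (SE 0.42, adjusted p = 0.0358, edgeR). Snhg20 had the smallest adjusted p of the 6. It was at 12.5, 7.47, 7.56, 9.78 and 14.7 CPM in western libraries and at 13.7 to 42.8 CPM (median 35.9) with NaKtide, 5 libraries above all western ones. Its log2 fold change was 1.53 (SE 0.31, adjusted p = 0.00276, edgeR).

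Neat1 and Snhg20 kept an adjusted p under 0.05 in all 22 fits that each left out 1 library. Malat1 lost it without western 2 (0.0553) and without western NaKtide 4 (0.0679). Bc1 lost it without western 2, 3 or 4 or western NaKtide 1 (0.0527 to 0.0706). Snhg11 lost it in 7 fits, without western 1, 3 or 4 or western NaKtide 1, 3, 4 or 5 (0.0593 to 0.0911). Fitted on the 2 groups alone, Malat1 (0.0593) and Snhg11 (0.0651) missed the threshold as well.

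**Figure D2:**
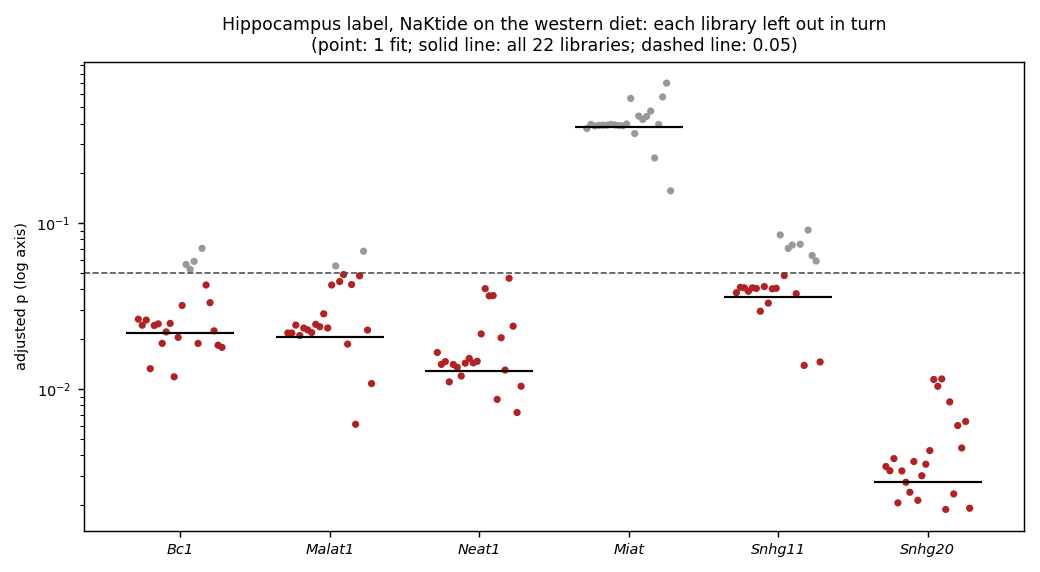
Adjusted p (log axis, edgeR) of each RNA for NaKtide on the western diet under the hippocampus label, 1 point per fit with 1 of 22 libraries left out, a solid line for the fit on all and a dashed line at 0.05. All 22 points of Neat1 and Snhg20 lie under the dashed line, and those of Miat lie between 0.157 and 0.702.

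The NaKtide libraries of the western diet differed from those without it in other measures as well. Mitochondrial protein genes took 15.6% of counts in library 3, 11.1% in library 1 and 8.92% in library 4, against 4.85% to 7.29% in the western libraries, while libraries 2, 5 and 6 had 5.91%, 5.597% and 5.98%. Libraries 1, 3 and 4 each held 5 of the 6 RNAs among their 10 highest of 42 libraries, while libraries 2 and 6 held none. Library 5, with the lowest mitochondrial share of the group, held 3, including the highest Miat of all 42 libraries. The marker counts that follow are to be read beside all genes of this comparison, of which 17.4% rose and 16.3% fell. Summed striatal medium spiny neuron markers were at 203.3 to 4921 CPM with NaKtide and at 185.3 to 527.7 CPM without, and 4 of 8 rose (median log2 fold change 2.43 over 8). Dentate granule cell markers summed to 66.2 to 177.5 CPM with NaKtide against 155.1 to 554.8 CPM without, and 4 of 7 fell (median -1.93). Pyramidal cell markers summed to 104.3 to 681.9 against 680.5 to 1416 CPM, and 4 of 8 fell (median -1.55). Pan-neuronal markers ran from 3408 to 5000 CPM against 5301 to 6863 CPM, and 4 of 8 fell (median -0.45). Microglial (5 of 8 rose, 356.1 to 600.8 against 267.8 to 397.4 CPM) and blood markers (4 of 5 rose, 656.1 to 3541 against 247.5 to 1307 CPM) were higher. Of 8 markers each, 1 rose and 4 fell for astrocytes (median -0.18), 1 rose for oligodendrocytes (median 0.39) and 1 rose for endothelium and pericytes (median 0.07). Among the markers with a library at 0 were Gabra6 (4 of 6 NaKtide libraries and 1 of 5 western ones) and the pituitary gene Cga (all 11). The part of these measures in the changes of the 6 RNAs was not tested.

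**Figure D3:**
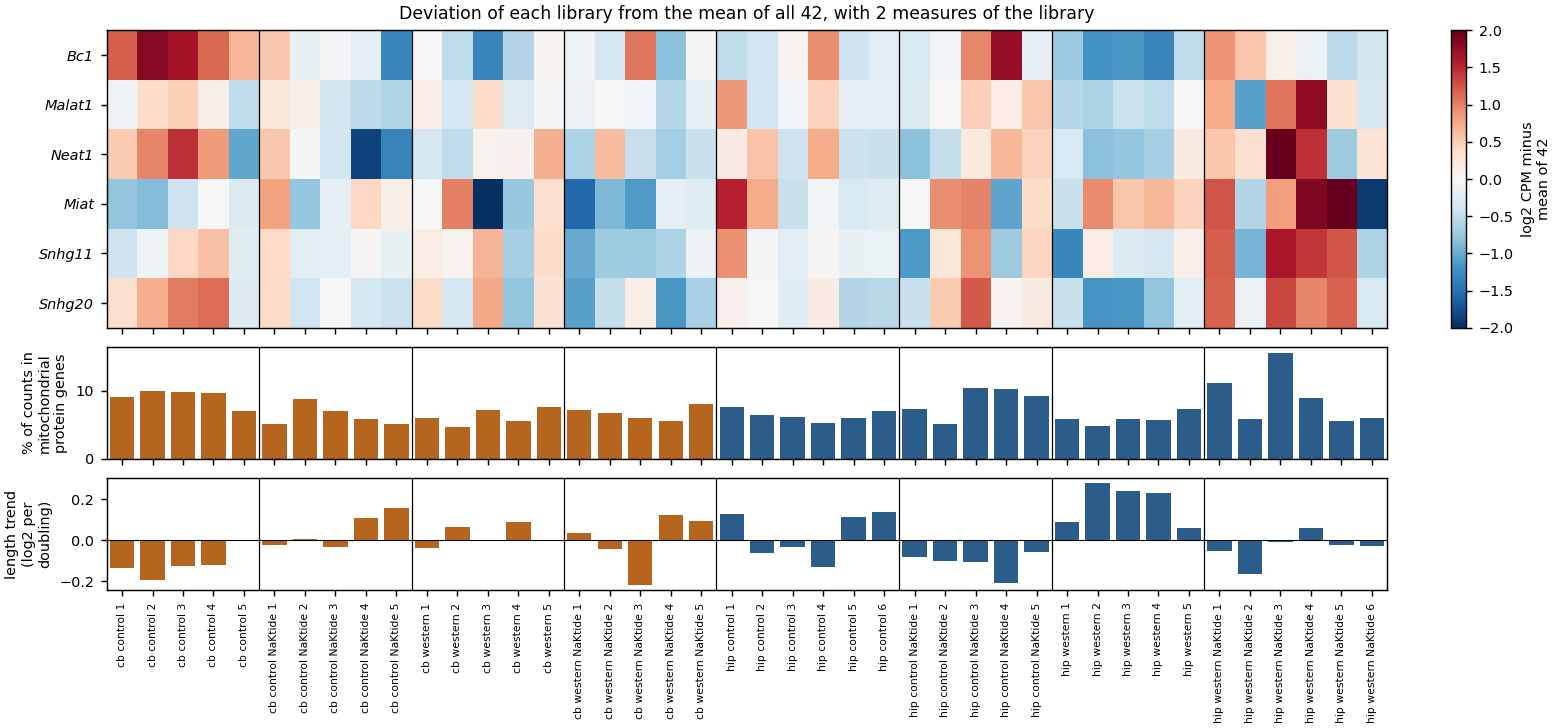
Each library's log2 CPM minus the mean of all 42 for the 6 RNAs (upper panel, red higher and blue lower), above its percentage of counts in mitochondrial protein genes and its trend of expression with exon length (log2 per doubling), with brown bars for cerebellum and blue for hippocampus labels. Hippocampus western NaKtide 3 has the tallest mitochondrial bar, 15.6%, together with the highest Neat1, Snhg11 and Snhg20.

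Among the lists of protein partners and splicing genes, called genes more often fell than rose, except in the nuclear speckle list. Over all genes in this comparison 17.4% rose and 16.3% fell, and the nuclear speckle counts in both directions and the paraspeckle count of rises lay below those shares. Of 12 paraspeckle proteins, 1 rose and 4 fell (median log2 fold change -0.20), among them the RNA-binding proteins Hnrnpk (-0.47, SE 0.12, adjusted p = 0.00784) and Sfpq (-0.37, SE 0.12, adjusted p = 0.0184, edgeR), while Neat1 rose. Of 18 nuclear speckle and SR splicing genes, 2 rose and 1 fell (median 0.29), with the splicing kinase gene Clk4 at 0.80 (SE 0.24, adjusted p = 0.0149) and Srsf10 at -0.44 (SE 0.13, adjusted p = 0.0154, edgeR). Of 12 genes for Bc1 protein partners and dendritic translation, none rose and 7 fell (median -0.33), led by the microtubule protein gene Map1b (-1.11, SE 0.19, adjusted p = 0.00128) and the translation repressor gene Fmr1 (-1.25, SE 0.24, adjusted p = 0.00244, edgeR). Of 13 Miat-binding and neuronal splicing factors, 4 fell and none rose (median -0.21), including Elavl2 (-1.34, adjusted p = 0.00117) and Rbfox1 (-1.30, adjusted p = 0.00269, edgeR). Those falls stand beside the lower pan-neuronal markers given above.

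Most other host genes of small nucleolar RNAs rose, as Snhg11 and Snhg20 did. Of 15 tested (18 listed), 10 rose and none fell, against 17.4% and 16.3% of all genes, and all 15 fold changes were positive (0.24 to 1.23, median 0.73). Snhg8 rose by 1.09 on the log2 scale (SE 0.24, adjusted p = 0.00374) and Gas5, a growth-arrest transcript, by 0.94 (SE 0.22, adjusted p = 0.00539, edgeR). Short RNAs were relatively higher in these NaKtide libraries, as given above for Bc1. The part of that length trend in the rises of these host genes was not tested. Of 19 other long noncoding RNAs of brain, 5 rose and 2 fell (median 0.52, from -0.80 to 2.02), shares nearer to those of all genes. The imprinted Meg3 rose (1.52, SE 0.43, adjusted p = 0.0117), and 1700020I14Rik, also known as Oip5os1 or Cyrano, fell (-0.80, SE 0.18, adjusted p = 0.00414, edgeR).

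**Figure D4:**
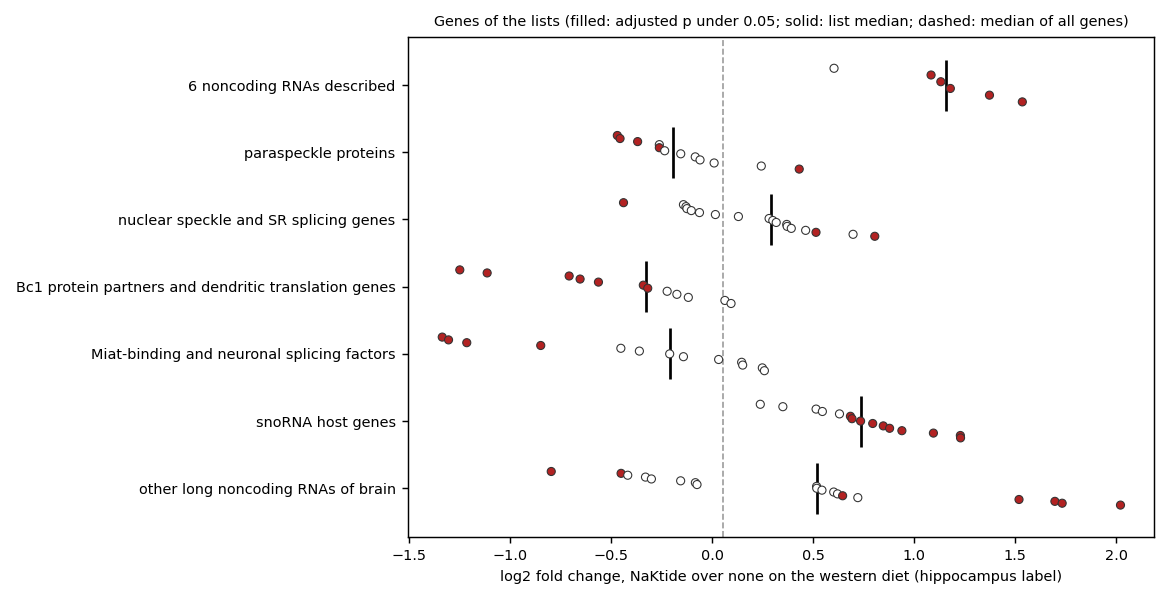
Log2 fold changes of the 6 RNAs and of 6 gene lists for NaKtide on the western diet under the hippocampus label, 1 point per gene, filled where the adjusted p is under 0.05, with a solid line at each median and a dashed line at the median of all genes. The snoRNA host genes lie to the right of 0, and the Bc1 partner genes mostly to the left.

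Bc1 showed its largest differences in libraries labelled cerebellum. The 5 cerebellum control libraries were at 767.1, 1204, 1065, 746.4 and 530.3 CPM. On the control diet with NaKtide the values were 487.9, 303.8, 328.8, 298.9 and 136.3 CPM, and on the western diet without NaKtide 338.3, 235.4, 134.6, 225.3 and 345.0 CPM. All 5 libraries of either group lay below all 5 controls. Non-overlap in that direction was found for 1.91% of 17088 genes for NaKtide on the control diet, and for 1.38% for the western diet without NaKtide. Neither difference passed edgeR's test over all genes (log2 fold change -1.47, SE 0.36, adjusted p = 0.0908, and -1.76, SE 0.36, adjusted p = 0.160), in which 1 gene of 16338 passed in each case (0.00612%). DESeq2 called both (adjusted p = 0.0139 and 0.00193), among 1360 and 153 genes. These comparisons share the control libraries. Without cerebellum control 5 edgeR called both too (adjusted p = 0.0148 and 0.0344), in fits that called 26.5% and 5.09% of all genes, 12.7% and 2.35% with a fall. NaKtide on the control diet also had Bc1 called without cerebellum western NaKtide 3 (adjusted p = 0.0371, edgeR), where 8.38% of genes were called.

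Other measures of the library differed between those cerebellum groups as well. Mitochondrial protein genes took 6.94% to 9.998% of counts in control, 5.04% to 8.84% in control with NaKtide and 4.68% to 7.63% in western. The length trend was -0.195 to -0.0028 log2 per doubling in control, against -0.0347 to 0.155 with NaKtide and -0.0389 to 0.0873 in western, where lower values mean relatively more of short RNAs. With that trend removed, the estimates for Bc1 were -0.97 and -1.21 (adjusted p = 0.0977 and 0.175, edgeR). Pituitary markers summed to 7.32 to 309.9 CPM in control, 2.09 to 31.0 with NaKtide and 2.89 to 4.85 in western, the last without overlap with control. Oligodendrocyte markers had medians of 15120, 6606 and 7222 CPM (4425 to 19609, 2077 to 9874 and 5768 to 11841), with overlap. None of the 3 pituitary and 8 oligodendrocyte markers tested was called, and the pituitary gene Cga was at 0 in all 5 western libraries. Cerebellar granule and Purkinje cell markers had similar medians (210.8, 209.2 and 205.4 CPM) but different ranges. The ranges were 130.5 to 576.6 CPM in control, 156.7 to 2333 with NaKtide and 161.1 to 5062 in western. The highest sums of the latter groups were in control NaKtide 5 and western 3. Those libraries also held the lowest Bc1 of their groups (136.3 and 134.6 CPM). The part of these measures in the lower Bc1 was not tested.

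In cerebellum western with NaKtide, Bc1 was at 313.9, 263.9, 704.9, 190.3 and 326.8 CPM, overlapping the western libraries (log2 fold change 0.49, 95% interval -0.20 to 1.18, adjusted p = 1, edgeR). The diet by NaKtide interaction of Bc1 in cerebellum was 1.97 (SE 0.50, adjusted p = 0.251, edgeR, with 0.00612% of genes called), and DESeq2 called it (adjusted p = 0.0345). In hippocampus, the western diet without NaKtide had Bc1 at 135.5 to 235.9 CPM against 236.3 to 640.7 CPM in the 6 control libraries (median 272.7). The ranges met within 1 CPM without overlapping, which 1.19% of genes did in that direction. The log2 fold change was -0.97 (SE 0.36, adjusted p = 0.124, edgeR), where 0.0% of genes passed.

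No other comparison of diet or NaKtide within a region label had a call among the 6 RNAs by edgeR. At an unadjusted p under 0.05 there were 3 for NaKtide on the control diet in cerebellum (Bc1, Neat1 and Snhg20), where 29.5% of all genes reached it. There were 2 for NaKtide on the western diet in cerebellum (4.16% of all genes) and 3 for the interaction in hippocampus (14.6%). The western diet without NaKtide had 1 under each label (19.5% of all genes in cerebellum and 24.6% in hippocampus), as did the western diet with NaKtide (2.42% and 10.7%) and the interaction in cerebellum (17.4%). NaKtide on the control diet in hippocampus had none (16.5%). DESeq2 called 1 RNA, Bc1, in 3 comparisons (given above) and none in the rest. The share of all genes called by edgeR was 0.0% for the western diet with NaKtide under either label, NaKtide on the western diet in cerebellum, NaKtide on the control diet in hippocampus and the hippocampus interaction.

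In cerebellum, Neat1 was at 158.0, 214.6, 302.7, 198.4 and 53.4 CPM on the control diet and at 159.2, 107.1, 84.3, 30.2 and 43.3 CPM with NaKtide. The groups overlapped, with control 5 inside the NaKtide range and control 1 just below NaKtide library 1, and the log2 fold change was -1.13 (SE 0.44, adjusted p = 0.114, edgeR). Snhg20 went from 21.3, 28.1, 34.8, 36.7 and 14.1 CPM to 21.9, 12.9, 16.9, 13.3 and 12.6 CPM (-0.80, SE 0.31, adjusted p = 0.113, edgeR), and controls 1 and 5 lay inside the NaKtide range there too. Without control 5 both were called by edgeR, Neat1 at adjusted p = 0.0228 and Snhg20 at 0.0276, in the fit given above that called 26.5% of all genes.

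Snhg11 had a different pattern in those libraries. Its western libraries were at 617.1, 584.4, 888.9, 350.5 and 718.4 CPM, and those with NaKtide at 276.1, 338.3, 340.5, 360.2 and 512.1 CPM. Of the latter 3 lay below all western libraries, with an estimate of -0.79 on the log2 scale (SE 0.23, unadjusted p = 0.00317, adjusted p = 1, edgeR). Snhg11 thus had a negative estimate for NaKtide on the western diet under the cerebellum label and rose under the hippocampus label. Malat1 had small estimates in cerebellum, from -0.31 to 0.13 over the 5 contrasts, with group means of 122.5 to 151.1 CPM.

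**Figure D5:**
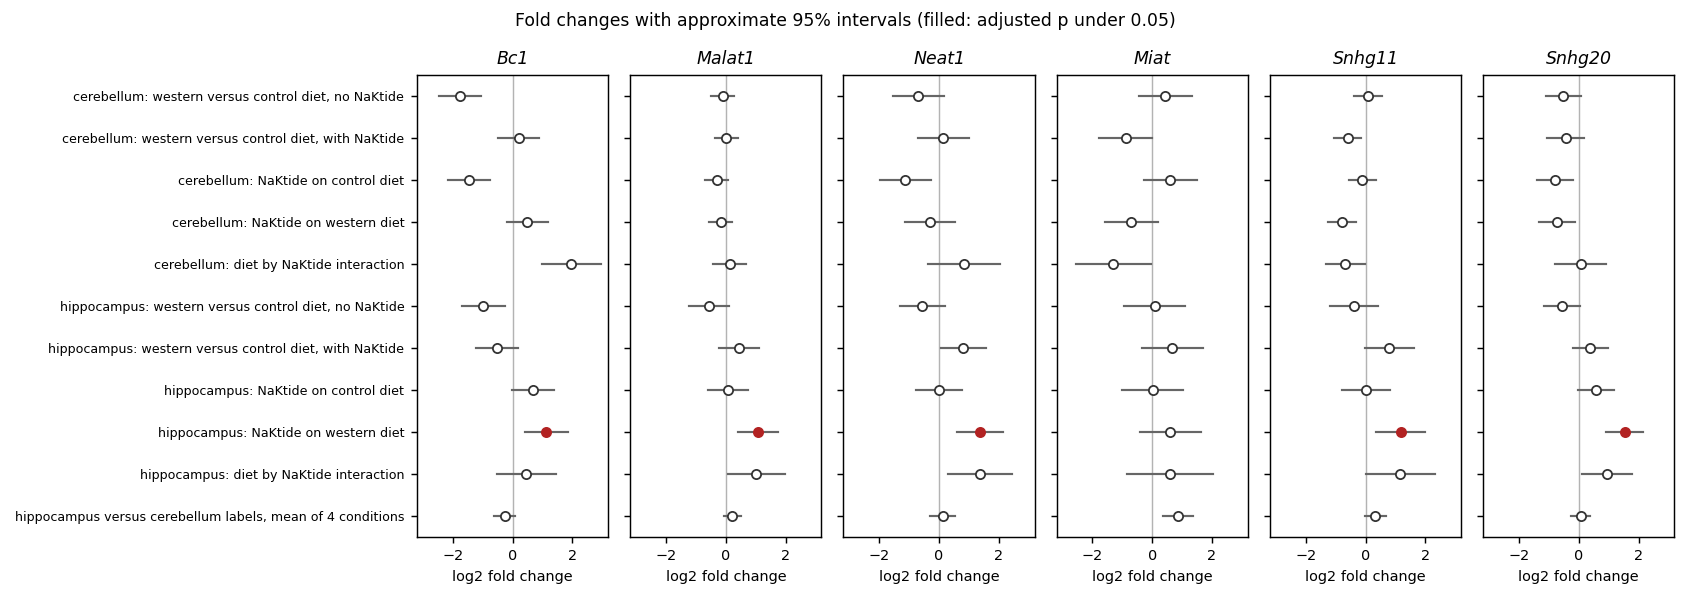
Log2 fold changes with approximate 95% intervals (edgeR estimate and SE) of the 6 RNAs in 11 comparisons, filled where the adjusted p is under 0.05. The filled points are those of Bc1, Malat1, Neat1, Snhg11 and Snhg20 for NaKtide on the western diet under the hippocampus label, and the lowest estimate is -1.76 for Bc1 with the western diet in cerebellum.

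The difference of the NaKtide effect between the region labels was tested in 1 model over all 42 libraries, in 2 comparisons added after seeing the data. The labels do not say whether a mouse gave libraries under both region labels. The model held no term for the mouse, so its p-values treat all 42 libraries as independent. On the control diet, Bc1 and Snhg20 differed, where 20.6% of 17088 genes did, 11.7% in the same direction (median log2 difference -0.017 over all genes and 0.74 over the 6 RNAs). The log2 difference, hippocampus minus cerebellum, was 2.14 for Bc1 (SE 0.52, adjusted p = 0.00762) and 1.37 for Snhg20 (SE 0.45, adjusted p = 0.0284, edgeR). Bc1 passed in all 42 fits that left out 1 library, whereas Snhg20 missed the threshold in 8 of them (adjusted p from 0.0509 to 0.092, without cerebellum control 2, 3 or 4, cerebellum control NaKtide 4 or 5, hippocampus control 5 or 6 or hippocampus control NaKtide 3). It also missed it without the 4 libraries with Xist (0.1), with hippocampus control 5 and 6 summed (0.0501) and with the length trend removed (0.0539). On the western diet, Snhg11 and Snhg20 differed, where 8.84% of genes did, 4.39% in the same direction (medians 0.10 and 1.51). The log2 difference was 2.00 for Snhg11 (SE 0.51, adjusted p = 0.0183) and 2.28 for Snhg20 (SE 0.45, adjusted p = 0.0140, edgeR). Malat1 (1.28, adjusted p = 0.0509) and Neat1 (1.68, adjusted p = 0.0687) did not pass with edgeR. Both passed with DESeq2 (0.0353 and 0.0454), which called 2164 of the 17088 genes. Malat1 also passed by edgeR with the length trend removed (0.0356), without the 4 libraries with Xist (0.0447) and with the replicate block (0.0418). It passed in 8 of the 42 fits that left out 1 library (0.0140 to 0.0479), without cerebellum control 5, cerebellum western 2 or 4, cerebellum western NaKtide 3, hippocampus control 1, hippocampus western 5 or hippocampus western NaKtide 2 or 6. Neat1 passed in 2 of them, without cerebellum western NaKtide 2 (0.0384) and without hippocampus western 5 (0.0466).

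The region labels themselves, averaged over the 4 conditions, separated none of the 6 RNAs by edgeR, in a comparison with 8 of 17088 genes called (0.0468%). Miat came nearest, with a log2 difference of 0.86 higher under the hippocampus label (SE 0.26, unadjusted p = 0.00207, adjusted p = 0.176), the only one of the 6 at an unadjusted p under 0.05. DESeq2 also called none. Here too all libraries were treated as independent, with no term for the mouse. Since most libraries labelled cerebellum lacked Gabra6, this compares labels and not established regions.

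The 6 RNAs did not vary as a block over the 42 libraries. Correlations of log2 CPM are descriptions over libraries that share preparation, depth and group structure. Malat1, Snhg11 and Snhg20 varied together (Pearson r of 0.71 to 0.75 between them), and Neat1 went with Malat1 (0.67) and Snhg20 (0.63). Bc1 went with Snhg20 (0.54) and Neat1 (0.51) and had little relation to Snhg11 (0.07) or Miat (-0.13). Miat went with Snhg11 (0.60) and had almost none to Neat1 (0.02).

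Measures of the library moved with several of the RNAs. With the percentage of counts in mitochondrial protein genes, r was 0.67 for Neat1, 0.62 for Malat1, 0.60 for Snhg20, 0.51 for Bc1, 0.47 for Snhg11 and 0.04 for Miat. With the trend of expression on exon length, r was -0.81 for Bc1, -0.60 for Snhg20 and -0.49 for Neat1, and 0.02 for Snhg11. Bc1, at 168 bases, is the shortest of the 6.

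The genes whose levels were most like each RNA differed between them, among 11393 genes with a mean of at least 5 CPM. For Bc1 they were the actin-binding thymosin gene Tmsb10 (r = 0.91) and the ribosomal protein genes Rpl41 (0.89) and Rpl19 (0.88). Deviations from the group means gave 0.85, 0.85 and 0.83. For Malat1 they were Safb2 (0.83), a scaffold attachment factor, the collagen gene Col11a2 (0.83) and Clasrp (0.82), a splicing regulator gene. For Neat1 they were Sec14l5 (0.96), Phldb1 (0.94) and Kif13b (0.91), the last a kinesin motor gene, with 0.95, 0.93 and 0.90 over deviations from group means. For Miat they were the synaptic vesicle priming gene Unc13b (0.86), the phosphodiesterase gene Pde4a (0.80) and Brd9 (0.79). For Snhg11 they were Meg3 (0.95), the snRNA-activating complex gene Snapc4 (0.94) and the nuclear poly(A)-binding protein gene Pabpn1 (0.94). For Snhg20 they were Clasrp (0.93), the heme synthesis gene Ppox (0.93) and Miip (0.92).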

How the data were processed

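Levels of 6 noncoding RNA genes were measured by RNA-seq in 42 brain libraries. The deposited files hold the raw count of each of 54232 Ensembl genes, counts divided by the authors' size factors (a normalized signal; 1 factor per library, 0.593 to 1.50) and FPKM, which the authors derived from that signal with 1 factor per gene. Per the submitters' processing notes, Trimmomatic 0.38, HISAT2 2.1.0, DESeq2 1.20.0 and GRCm38 were used; counter and annotation are not named there. The kit was a stranded mRNA one, per the labels' protocols. The design text describes liver and adipose tissue instead, so each library's own labels gave its group.

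Symbols came from reference tables (54079 IDs matched), and positions and transcripts from GENCODE M21. From the raw counts, each region label's 4 groups were fitted together in edgeR 4.0.16 (R 4.3.3; TMM factors, filterByExpr, quasi-likelihood F test, Benjamini-Hochberg adjustment over all genes, threshold 0.05), and both labels in 1 model of 8 groups for comparisons between them. Levels are CPM with TMM factors (summed markers and Gabra6 without them), and log2 CPM for correlations used a prior count of 2. SE was derived from the estimate and its F statistic, and 95% intervals are approximate. Library totals of 4669374 to 9521002 counts gave 51 or more counts to each of the 6 genes in every library. Alternatives were DESeq2 1.42.0, its size factors, no low-count filter, only the groups compared, a replicate block, each library left out and, for levels, other scales; further ones were added after seeing the data (libraries with Xist left out, hippocampus control 5 and 6 summed, the length trend removed). The scripts were tested on simulated data.

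The members and lists were chosen with earlier results of these data known. Named beside the 6 genes were the 3 genes with the highest r with each, and in each list the 2 called genes with the smallest p; no list was tested as a set.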

Additional observations from a re-analysis of the deposited data

Results flagged for a closer look

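Of 48 sets of a gene and a group, 5 had a highest library set apart from the rest by a gap too large for the group's range at the 95% level. For independent sets of normally distributed values, chance would give about 1 in 20, or 2.4. The values were CPM and not their logarithms, and the sets share libraries, so that expectation is only rough. Bc1 was at 704.9 CPM in cerebellum western NaKtide 3 (next 326.8) and at 640.7 CPM in hippocampus control 4 (next 347.1). Those libraries had length trends of -0.218 and -0.131 log2 per doubling. Malat1 was at 138.7 CPM in hippocampus western 5 (next 103.6). Neat1 was at 170.4 CPM in cerebellum western NaKtide 2 (next 80.0). Snhg11 was at 1040 CPM in hippocampus control 1 (next 561.5), a library that also held the highest Miat and Malat1 of its group, at 259.8 and 254.2 CPM.

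The effect of NaKtide differed between the region labels by a direct test in 4 cases. On the control diet the log2 difference, hippocampus minus cerebellum, was 2.14 for Bc1 and 1.37 for Snhg20. There 20.6% of 17088 genes were called, 11.7% in the same direction. The Snhg20 call on the control diet was lost in several alternatives, as given above. On the western diet the difference was 2.00 for Snhg11 and 2.28 for Snhg20, where 8.84% of genes were called, 4.39% in the same direction. In each of the 4 cases the estimate was negative under the cerebellum label, at -1.47, -0.80, -0.79 and -0.73. It was positive under the hippocampus label, at 0.68, 0.58, 1.18 and 1.53. In the main edgeR fits none of the 4 cerebellum estimates was called. The 0.68 and 0.58 of the control diet in hippocampus were not called either (lowest adjusted p of the 6 RNAs 0.33, edgeR). Bc1 there was at 273.7 to 1133 CPM with NaKtide (median 324.7) and 236.3 to 640.7 CPM without (median 272.7).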

How the results depend on the processing

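Group means of the 6 RNAs on 3 other scales (CPM of the library total, the deposited normalized counts, CPM outside mitochondrial protein genes) all moved by less than 1 SD. Fold changes of members kept their side of the threshold in 550 of 564 alternatives that kept all replicates and in 1980 of 2016 that left out 1 library; no called one reversed, and 69 of 2580 changed sign without a call. For NaKtide on the western diet in hippocampus, members called were 5 except 3 with only the groups compared and 4 with the length trend removed (3 to 5 with 1 library left out; all genes 3807 to 6116).

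DESeq2 called 1 member (Bc1) for the western diet without NaKtide (153 genes), NaKtide on the control diet (1360) and the interaction (6) in cerebellum. For the label difference of NaKtide on the western diet it called 4 members (2164 genes). Its counts of all genes were 1 for the western diet with NaKtide and 1 for NaKtide on the western diet in cerebellum, 829, 33 and 3 in hippocampus for the western diet without NaKtide, with it and NaKtide on the control diet, 180 for the interaction there, and 87 for the region labels. Without the low-count filter counts were 2 for NaKtide on the control diet in cerebellum, 8, 1 and 1 for those 3 hippocampus comparisons, and 794 for the label difference on the western diet. The western diet without NaKtide in hippocampus gave 2209 genes without the libraries with Xist, 39 with control 5 and 6 summed and 60 with only its groups. The region labels gave 43 without the libraries with Xist, 2 with control 5 and 6 summed, 15 with the length trend removed and 0 with the replicate block. The label difference of NaKtide on the control diet called 1 member with the length trend removed, without the libraries with Xist (503 genes) and with control 5 and 6 summed. The causes were not tested.

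The replicate block gave 2324 genes for the label difference on the western diet, 5221 for NaKtide on the western diet in hippocampus, and changed 1 member call (Malat1, label difference on the western diet, adjusted p = 0.0418, edgeR). Within a region label, same-numbered libraries of different groups had median correlations of -0.058 (cerebellum, from -0.467 to 0.626) and -0.109 (hippocampus, from -0.484 to 0.417). These were taken over deviations from the group means. They cannot say whether same-numbered libraries of the same condition under both region labels came from the same mouse, which was not tested.

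With 1 library left out, members called ranged from 0 to 1 (western diet without NaKtide) and 0 to 3 (NaKtide on the control diet) in cerebellum, and from 1 to 2 and 2 to 4 for the label differences on the control and the western diet. Counts of all genes ran from 1 to 841, 1 to 4386, 0 to 1 (NaKtide on the western diet) and 1 to 5 (interaction) in cerebellum, where cerebellum control 5 gave the highest of the first, second and last; from 0 to 515 (western diet without NaKtide), 0 to 6 (with it), 0 to 1 (NaKtide on the control diet) and 0 to 59 (interaction) in hippocampus; from 0 to 13 for the region labels; and from 2020 to 5718 and 416 to 4089 for the label differences.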
